A study of Homo sapiens with 6 samples.

Results

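NEAT1 and MALAT1 are neighbouring long noncoding RNA genes on chromosome 11, both transcribed from the plus strand. In hg19 coordinates NEAT1 (ENSG00000245532) lay at chr11:65190245-65213011, a body of 22767 bp. MALAT1 (ENSG00000251562) lay at chr11:65265111-65275544, a body of 10434 bp, and 52099 bp separated the genes. The peaks described here were chosen by position only, as those with a summit in the 2 gene bodies, the sequence between them and 20 kb on each side, a window of 125300 bp. These were 429 of the 4267178 peaks in the 8 deposited lists, of which 109 lay in NEAT1, 57 in MALAT1, 160 between the genes, 53 in the upstream 20 kb and 50 in the downstream 20 kb. The 2 genes were 2 of 63827 annotated on chromosomes 1 to 22 and X.

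NEAT1 RNA is the scaffold of paraspeckles, nuclear bodies that form around it as it is made, and MALAT1 RNA gathers in nuclear speckles, which hold splicing factors. Both RNAs are abundant in the nucleus and are made by RNA polymerase II. MALAT1 RNA and the long form of NEAT1 RNA end where RNase P cuts off a tRNA-like fold. Topoisomerase I (Top1) relieves the supercoils that transcription makes by cutting a single strand and resealing it, and camptothecin (CPT) holds the enzyme on the cut DNA.

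The study mapped double-strand break ends by END-seq in HCT116, a human epithelial colorectal carcinoma line. In this assay an adapter is joined to free DNA ends inside agarose plugs and the tagged fragments are sequenced, here with murine pre-B cells as a spike-in that was not analysed. Cells were left untreated (Ctrl) or exposed to 10 µM CPT for 10 min (CPT10) or 20 min (CPT20), with 2 biological replicates each. The sample labels give 10 and 20 with the unit µM, whereas the treatment protocol gives a single dose and these numbers as minutes, the reading used here. The 2 Ctrl libraries served as input for peak calling and had no list of their own among those analysed, so no value below is a contrast with untreated cells at the same position. Each of the 4 treated libraries had a list of forward peaks, from reads that start to the right of a break end, and a list of reverse peaks, from reads to its left. Both genes lie on the plus strand, so forward is also the strand of transcription. Read depth was not given in the lists. Values of the 4 treated libraries stand in the order CPT10 replicate 1, CPT10 replicate 2, CPT20 replicate 1, CPT20 replicate 2. The 8 lists held 286491 to 826744 peaks and covered 2.35% to 7.23% of the genome, least in CPT20 replicate 2 and most in the reverse list of CPT10 replicate 1. More covered bases cannot be told apart from more cells with a break there.

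The results turn on a few short stretches, printed here from GRCh37, the assembly of hg19, as the plus strand in the 5′ to 3′ direction. In the stretch under the highest peak of the locus, a reverse peak in MALAT1, capitals run from the lowest to the highest of its 4 summits, one per library. In the stretch with the tightest forward summits of MALAT1, capitals again run from the lowest to the highest summit of the 4 libraries. In the last 2 stretches capitals begin at the first annotated base of NEAT1 and at the most frequent transcript start of MALAT1, to show the sequence at the starts from which the peak positions are read.
MALAT1 reverse summits, chr11:65267180-65267479 (+): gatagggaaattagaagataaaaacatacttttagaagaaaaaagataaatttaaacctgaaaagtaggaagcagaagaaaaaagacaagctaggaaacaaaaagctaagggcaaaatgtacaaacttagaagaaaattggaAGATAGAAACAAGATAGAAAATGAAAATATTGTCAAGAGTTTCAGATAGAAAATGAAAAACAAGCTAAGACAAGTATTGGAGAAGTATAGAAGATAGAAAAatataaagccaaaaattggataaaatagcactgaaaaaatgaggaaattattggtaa
MALAT1 forward summits, chr11:65268489-65268788 (+): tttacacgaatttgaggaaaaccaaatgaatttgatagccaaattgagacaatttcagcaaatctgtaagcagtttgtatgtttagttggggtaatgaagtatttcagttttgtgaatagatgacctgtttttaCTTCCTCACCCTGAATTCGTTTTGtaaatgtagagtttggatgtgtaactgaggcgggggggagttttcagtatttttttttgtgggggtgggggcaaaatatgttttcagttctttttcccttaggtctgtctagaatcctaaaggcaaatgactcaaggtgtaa
NEAT1 5′ end, chr11:65190095-65190394 (+): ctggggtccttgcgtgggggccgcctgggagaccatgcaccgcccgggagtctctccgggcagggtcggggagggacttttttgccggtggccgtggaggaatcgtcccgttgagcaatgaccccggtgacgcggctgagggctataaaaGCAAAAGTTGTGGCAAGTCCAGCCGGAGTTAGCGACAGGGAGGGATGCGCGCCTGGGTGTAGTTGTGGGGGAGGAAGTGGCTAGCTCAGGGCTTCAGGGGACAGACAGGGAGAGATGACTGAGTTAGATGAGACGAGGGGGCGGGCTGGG
MALAT1 frequent start, chr11:65266266-65266565 (+): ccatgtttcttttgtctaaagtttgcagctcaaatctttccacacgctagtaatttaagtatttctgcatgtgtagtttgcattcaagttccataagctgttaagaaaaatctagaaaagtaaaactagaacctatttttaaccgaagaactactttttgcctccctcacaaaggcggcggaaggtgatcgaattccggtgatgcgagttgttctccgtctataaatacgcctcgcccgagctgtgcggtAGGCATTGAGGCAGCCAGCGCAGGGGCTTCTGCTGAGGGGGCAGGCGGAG

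The MALAT1 reverse stretch was 74.3% A or G, above 99.9% of the 437089 windows of 300 bases on chromosome 11, where the median was 50%. Its GC content was 27.3%, with 2.88% of windows lower. The MALAT1 forward stretch was 51.0% A or G, with 54.8% of windows lower. The central 50 bases of each stretch occurred at 1 place on chromosome 11, counting both strands. The part of base composition in the peaks was not tested. The stretch at the frequent MALAT1 start has the same bounds as a RefSeq promoter window of MALAT1 (build GRCh38.p14). That window matched GRCh37 base for base. Another RefSeq promoter window of MALAT1 also matched exactly, with its start 98 bp from the annotated 5′ end.

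MALAT1 held the highest reverse peak of chromosome 11 in all 4 libraries. Its fold enrichment over the library's background was 86.0 and 121 at 10 min, and 71.4 and 88.3 at 20 min. The values at 10 and 20 min overlapped. The next highest reverse peak of the chromosome had a fold enrichment of 66.0, 60.8, 46.8 and 47.4 in the same order. Among all reverse peaks of chromosomes 1 to 22 and X, the MALAT1 peak ranked 52, 26, 55 and 30. The peak was 1601 to 3101 bp wide, and its summits lay 2218, 2211, 2311 and 2220 bp from the annotated 5′ end. Of 66 annotated MALAT1 transcripts, 19 start at a single base 1405 bp from that end, so the summits lay inside the transcribed part downstream of the frequent start.

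Forward peaks of MALAT1 were lower. A forward summit lay 3535, 3512, 3527 and 3529 bp from the 5′ end, within 23 bp across the 4 libraries and 1216 to 1317 bp to the right of the reverse summit. Its fold enrichment was 24.6 and 32.3 in the CPT10 libraries, and 13.4 and 10.7 in the CPT20 libraries. Both CPT20 values were below both CPT10 values, a difference that was not tested. In CPT20 replicate 2 the highest forward peak of MALAT1 was another, with a fold enrichment of 16.6 at 2451 bp. The highest forward peak of MALAT1 ranked 4, 6, 130 and 10 on the chromosome.

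**Figure D1:**
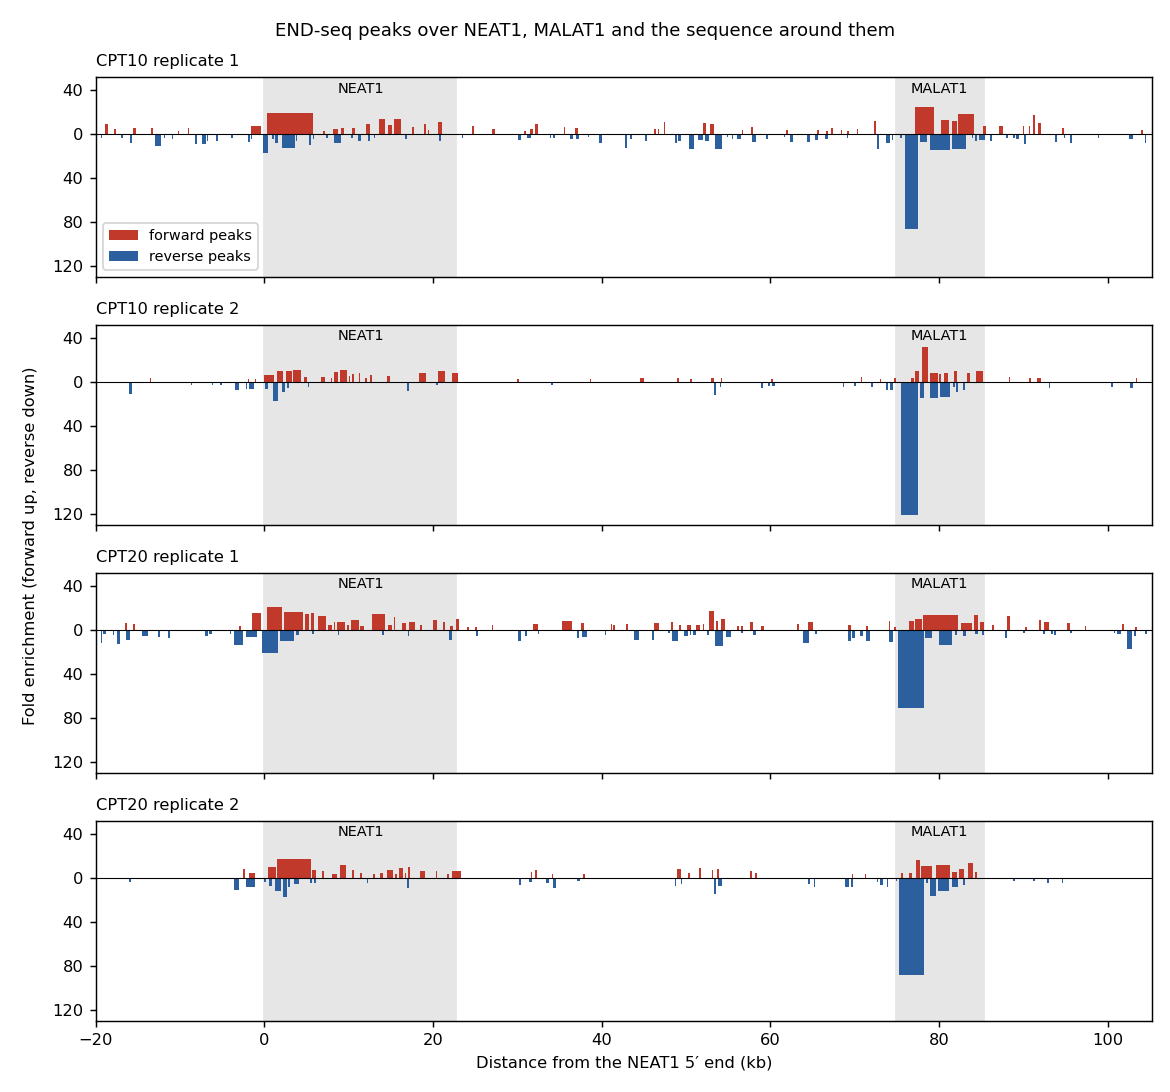
Peaks of each treated library against distance from the NEAT1 5′ end in kb, with fold enrichment upward for forward peaks (red) and downward for reverse peaks (blue), bar width the peak's width and gene bodies shaded. The reverse peak at the 5′ part of MALAT1 is the tallest bar in all 4 panels, at 71.4 to 121, while NEAT1 is lined with forward peaks along its body.

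NEAT1 had no single dominant peak. Its highest forward peak had a fold enrichment of 19.7, 11, 21.1 and 17.2 in the 4 libraries, and its highest reverse peak 16.6, 16.8, 21.4 and 17.2. The positions of these maxima moved between libraries, from 1766 to 3731 bp for forward and from 220 to 2422 bp for reverse summits. The tightest forward summits lay far inside the body, at 10428 to 10525 bp, where fold enrichment was only 5.32 to 8.96. On chromosome 11 as a whole, 49 forward and 64 reverse places held a summit of every library within 150 bp. NEAT1 held 1 of the forward places, and MALAT1 held 1 forward and 1 reverse place. The limit of 150 bp is the study's distance for pairing peaks, applied to summits after the data were seen. Just outside it were a NEAT1 reverse group at 2306 to 2466 bp, spanning 160 bp, and a NEAT1 forward group at 6966 to 7164 bp, spanning 198 bp.

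Peaks covered a large share of both genes. Forward peaks covered 46.2%, 40.9%, 60.5% and 48.8% of NEAT1. Reverse peaks covered 23.7%, 10.2%, 21.1% and 14.4% of it, less than the forward peaks in every library. MALAT1 was covered on both strands, at 55.0%, 46.2%, 72.9% and 59.0% by forward peaks and 73.3%, 50%, 63.0% and 60.1% by reverse peaks. Among 28819 genes of at least 5 kb, NEAT1 ranked 34, 28, 28 and 20 by forward coverage, but 733, 1335, 1280 and 446 by reverse coverage. MALAT1 ranked 11 to 21 by forward and 6 to 34 by reverse coverage.

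As a ratio of forward over reverse coverage, the strands differed more in the distal part of NEAT1. The gene makes a short and a long RNA from the same start, and 8 of its 9 annotated transcripts end within the first 3740 bp. Over that short form, forward peaks covered 91.5%, 77.4%, 85.7% and 83.9%, and reverse peaks 66.4%, 46.4%, 86.7% and 57.9%. Beyond it, in sequence that the long RNA alone spans, forward peaks covered 37.3%, 33.8%, 55.5% and 41.9%. Reverse peaks there covered 15.4%, 3.14%, 8.19% and 5.88%, below the forward value of every library. Log2 of forward over reverse coverage, each relative to the genome, was 1.02, 0.73, -0.02 and 0.52 over the short form. Beyond the short form it was 1.84, 3.42, 2.76 and 2.82. In percentage points the gap between the strands was not larger beyond the short form in the CPT10 libraries. The mean position of covered bases lay 8205 to 9557 bp from the 5′ end for forward and 4068 to 6503 bp for reverse peaks, with forward further along by 1702 to 5183 bp in all 4 libraries. In MALAT1 the forward mean position was also further along in all 4, by 556 to 1637 bp. Forward reads lie to the right of a break end and reverse reads to its left. How far this sets the shifts was not tested. The shifts were not compared with those of other genes.

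**Figure D2:**
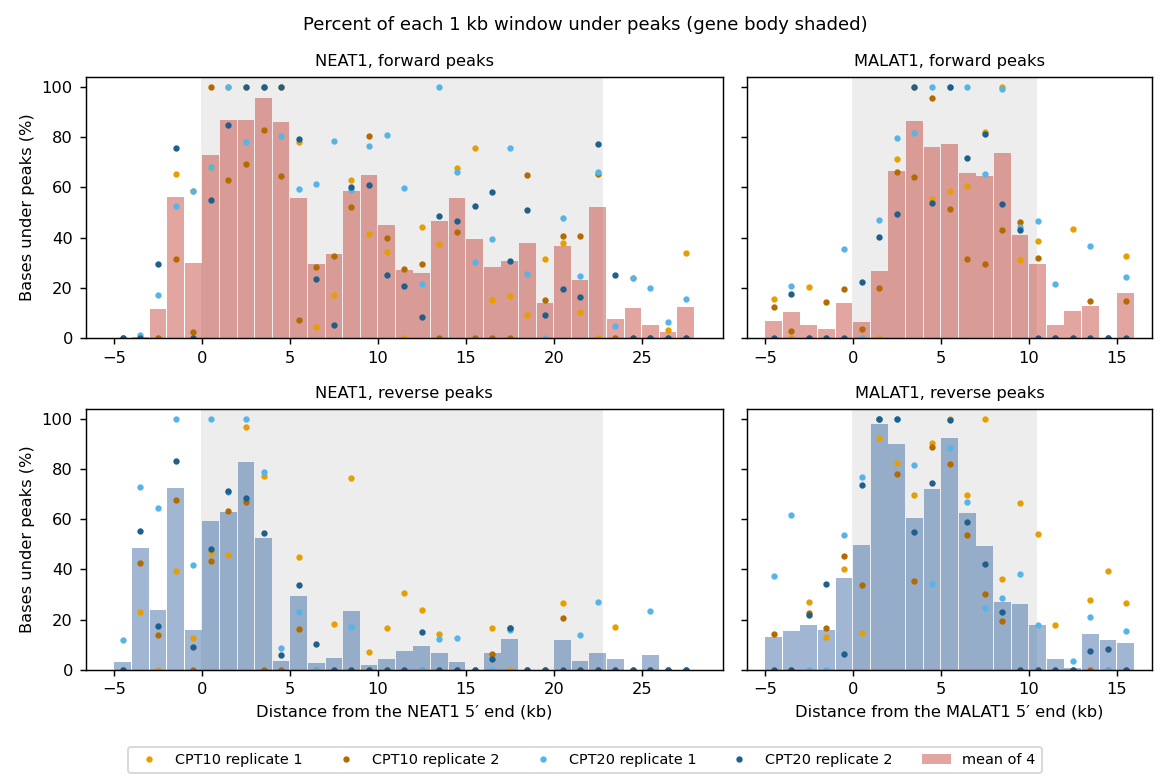
Percent of bases under peaks in 1 kb windows against distance from each gene's 5′ end in kb, for forward (top) and reverse (bottom) peaks. Bars are means of 4 libraries, points are single libraries and shading marks the gene body. Forward coverage runs along NEAT1, whereas reverse coverage is highest near its 5′ end. In MALAT1 reverse coverage rises before forward coverage does.

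At the MALAT1 start reverse coverage came first in each library. In the assay, reverse reads lie to the left of a break end and forward reads to its right. How far this sets the order of coverage was not tested. Nor was it tested for the order of the reverse and forward summits of MALAT1, which lay 1216 to 1317 bp apart. Neither order was compared with that in other genes. In the window from 1 to 2 kb past the 5′ end, reverse peaks covered 92.4%, 100%, 100% and 100% of bases, and forward peaks 0%, 19.9%, 46.9% and 40.2%. Reverse coverage was also the higher in all 4 libraries in the window from 2 to 3 kb, at 82.3%, 78.0%, 100% and 100% against 71.3%, 66.0%, 79.9% and 49.4%. In the window from 3 to 4 kb, forward peaks covered 100%, 64.3%, 81.6% and 100%, and reverse peaks 69.6%, 35.3%, 81.6% and 54.9%. Further in, the order differed between libraries, except in the window from 8 to 9 kb, where forward coverage was the higher in all 4. Forward peaks covered 100%, 43.0%, 99.3% and 53.3% of that window, and reverse peaks 36.3%, 19.5%, 28.8% and 23.1%. From 4 to 5 kb forward peaks covered 55.4%, 95.5%, 100% and 53.7%, and reverse peaks 90.3%, 88.7%, 34.3% and 74.6%. Reverse was thus higher there in CPT10 replicate 1 and CPT20 replicate 2 only. In each window from 5 to 8 kb, reverse was higher in both CPT10 libraries and forward in both CPT20 libraries. Some gaps were small, as in CPT10 replicate 2 from 7 to 8 kb, at 29.7% forward and 30.1% reverse. This split by time was not tested.

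To set these values against other genes, log2 of sense over antisense coverage (each in percent, plus 1 percentage point) was fitted with limma over 28157 genes of at least 5 kb with any peak. The fit took the 4 treated libraries as repeats and ignored time. Its standard errors and p-values therefore do not measure the spread between replicates of a single condition. NEAT1 was at 1.40, 1.90, 1.48 and 1.69 in the 4 libraries, a mean of 1.62 with a standard error of 0.20 (limma, adjusted p = 0.038). It ranked 1107 from the sense end, and 6.12% of genes were called with higher sense coverage. The call was narrow. Leaving out any of the 4 libraries gave 1.52 to 1.69 with adjusted p of 0.097 to 0.112 and no called gene (7510 to 7965 at an unadjusted p under 0.05). A pseudocount of 0.25 percentage points also called none (1.68, adjusted p = 0.077, 8624 genes at an unadjusted p under 0.05). When summits were counted the value was 0.83 (adjusted p = 0.072). Over all alternatives the adjusted p ran from 0.034 to 0.112. MALAT1 was at 0.06, -0.11, 0.21 and -0.03, a mean of 0.03 with a standard error of 0.19 (limma, adjusted p = 0.917), and its sign turned with the setting.

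Both genes stood above the DNA beside them. Log2 of body over flanking coverage, with flanks of 20 kb on each side, was 1.36, 2.41, 1.21 and 2.02 for NEAT1. The mean was 1.75 with a standard error of 0.25 (limma, adjusted p = 0.0084), the value of rank 137 of 28157. For MALAT1 it was 2.15, 2.99, 2.09 and 3.58, a mean of 2.70 with a standard error of 0.28 (limma, adjusted p = 0.0031), of rank 11. The share of genes called with a higher body was 3.02%. As in the strand fit, the 4 libraries were taken as repeats and time was ignored. Both calls held without any single library. They were lost when summits were counted in place of covered bases, at 0.87 for NEAT1 (adjusted p = 0.055) and 0.83 for MALAT1 (adjusted p = 0.125), a measure in which a broad peak counts the same as a narrow peak.

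**Figure D3:**
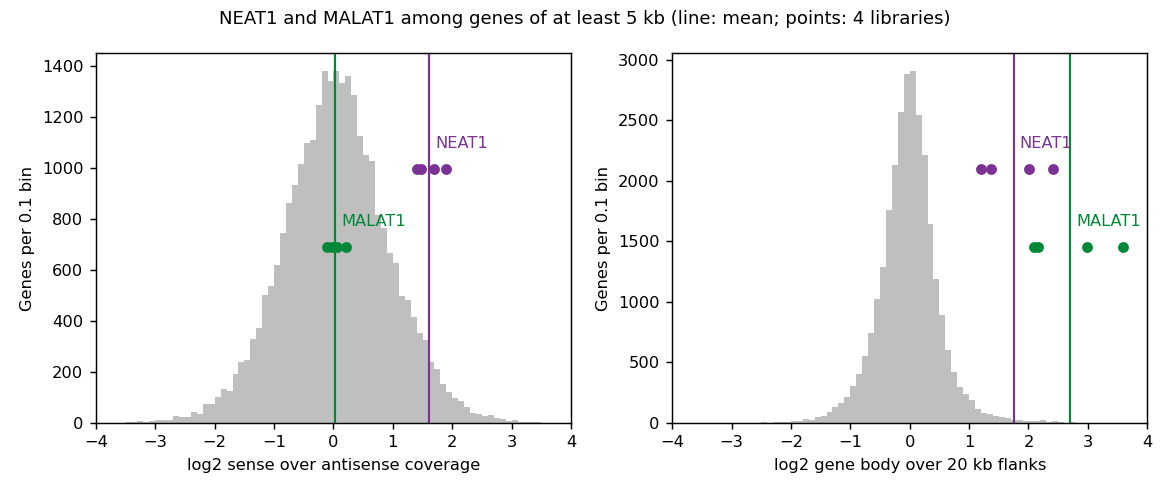
Number of genes per 0.1 bin of the mean log2 ratio of sense over antisense coverage (left) and of gene body over 20 kb flanks (right), for 28157 genes of at least 5 kb, with values beyond 4 placed in the end bins. Lines give the means of NEAT1 (purple) and MALAT1 (green) and points their 4 libraries, showing NEAT1 to the right on both scales and MALAT1 central on the left scale and far right on the other.

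Windows of 1 kb remove gene length from the comparison. At 10 min, 17 of the 22 whole windows of NEAT1 held a forward peak in both replicates, against 6.41% of all windows, and 6 held a reverse peak, against 8.39%. At 20 min these were 21 windows against 4.32%, and 7 windows against 4.26%. Of the 10 windows of MALAT1, 8 and 9 held a forward peak in both replicates at 10 and 20 min, and 9 held a reverse peak at each time. Between the genes, only 2 of 52 windows held a forward peak in both replicates at 10 min and 12 at 20 min, and 8 and 13 held a reverse peak. With −log10 q of at least 3 the reverse count at 10 min was 4.

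A paired site, in the study's definition, is a reverse peak with its closest forward peak, overlapping it or less than 150 bp downstream. An overlapping forward peak can begin to the left of the reverse peak, so a site need not have the reverse peak first. In CPT10 replicate 1, a NEAT1 forward peak of 5462 bp was paired with several reverse peaks that began inside it. The narrowest of these pairs was 42 bp wide before merging. The window held 21, 13, 32 and 13 such sites in the 4 libraries, after overlapping sites were merged. Sites overlapping between replicates numbered 5 at 10 min, of 4011 in the genome, and 6 at 20 min, of 2924. At both times the window held 3 of 931, 1 each in MALAT1, NEAT1 and the 20 kb upstream of NEAT1. The widest lay at chr11:65265343-65274420, a merged stretch of 9078 bp over most of MALAT1, which ranked 11 of the 931 by width. The NEAT1 site, chr11:65189995-65196025, ran from -250 to 5780 bp relative to the 5′ end and ranked 37, whereas the median site was 1725 bp wide. The remaining site, chr11:65188071-65189830, ran from -2174 to -415 bp relative to the NEAT1 5′ end and lay over ENSG00000290057, an unnamed noncoding gene of 417 bp.

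In NEAT1, 8 of 22 windows held a site replicated at 10 min, 8 a site replicated at 20 min and 6 a site present at both times. In MALAT1 these were 10, 9 and 10 of 10 windows. A site at both times is the merged extent of overlapping 10 and 20 min sites, so it can reach windows with a site at a single time. All 10 MALAT1 windows of this kind belonged to the single merged stretch of 9078 bp. Over all windows of the genome the shares were 0.25%, 0.21% and 0.0935%. Of genes of at least 5 kb, 2.12% overlapped a site replicated at both times, and both members did. Outside these shared stretches, a site at 20359 to 21404 bp of NEAT1 was replicated at 10 min only, and sites at 16955 to 17899 bp of NEAT1 and at chr11:65243593-65244808, between the genes, at 20 min only. That a site was replicated at a single time does not show a difference between times, which was not tested. When each pair of sites had to overlap by at least 0.5 of both, none remained at both times.

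Peaks replicated at a time were also sorted by whether a replicated peak of the opposite strand lay within 150 bp. Of the NEAT1 forward peaks, 8 of 9 at 10 min and 11 of 15 at 20 min had no such partner. In the genome, 73726 of 78990 and 53518 of 57533 forward peaks had none. Of the reverse peaks, 0 of 4 and 0 of 3 in NEAT1, and 0 of 4 and 0 of 5 in MALAT1, lacked a forward partner. In the genome 100832 of 106113 and 52752 of 56753 reverse peaks lacked a partner. In MALAT1 a partner was lacking for 1 of 5 and 1 of 4 forward peaks. Forward peaks covered 40.9% to 60.5% of NEAT1 and 46.2% to 72.9% of MALAT1, against 2.37% to 5.73% of the genome. Where coverage is this dense, a peak of the other strand lies within 150 bp of many positions whether or not ends are paired. The counts were not tested against that coverage.

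Coverage over each interval was divided by that of chromosomes 1 to 22 and X in the same library, with the forward and reverse lists averaged. Relative coverage of MALAT1 was 10.6 and 12.2 at 10 min and 11.9 and 25.2 at 20 min. For NEAT1 it was 5.77 and 6.47 at 10 min and 7.12 and 13.4 at 20 min. The 20 min values of NEAT1 were both above those at 10 min, whereas those of MALAT1 overlapped. The difference in log2 was 0.68 for NEAT1 (exact permutation test, two-sided, p = 0.33, the smallest that 4 libraries allow) and 0.61 for MALAT1 (exact permutation p = 0.667). Without CPT20 replicate 2 these were 0.22 and 0.06, and without CPT20 replicate 1 they were 1.13 and 1.15. Within replicate numbers 1 and 2 the log2 difference was 0.30 and 1.05 for NEAT1, and 0.17 and 1.05 for MALAT1. With every list limited to the size of the smallest they were 0.27 and 0.14, and against 1 Mb on each side of the window 0.24 and 0.17. In the limma fit of time over 28157 genes no gene was called (0%), with 1168 at an unadjusted p under 0.05. On simulated data this fit called none of the changed genes, so the absence of calls says nothing about change between the times. The values there were 0.55 with a standard error of 0.44 for NEAT1 and 0.48 with a standard error of 0.59 for MALAT1 (limma, both adjusted p = 1.00).

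**Figure D4:**
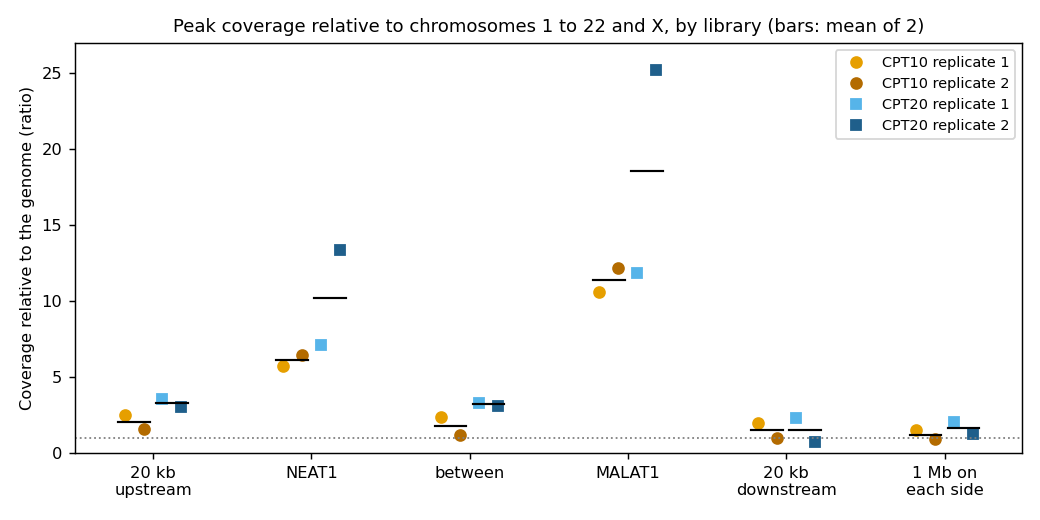
Peak coverage of each interval divided by that of the genome (ratio, dotted line at 1) for the CPT10 (circles) and CPT20 (squares) libraries, with bars at the mean of 2. MALAT1 is highest in all 4 libraries, at 10.6 to 25.2, NEAT1 next at 5.77 to 13.4, and CPT20 replicate 2 stands above the other libraries in both genes.

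The order of the intervals was the same in each library for the genes, with MALAT1 above NEAT1 and NEAT1 above every other interval. The upstream 20 kb had a relative coverage of 2.51, 1.57, 3.56 and 3.04, and the sequence between the genes 2.42, 1.2, 3.33 and 3.13. The values of these intervals overlapped. The downstream 20 kb, at 2.02, 1.04, 2.35 and 0.73, lay near the 1.54, 0.94, 2.10 and 1.27 of the DNA within 1 Mb. Between the genes the log2 difference between times was 0.92 (exact permutation p = 0.33), both libraries at 20 min being above both at 10 min. It ran from 0.42 without CPT10 replicate 2 to 1.43 without CPT10 replicate 1, and was 0.48 against 1 Mb on each side.

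The highest reverse peak between the genes had a fold enrichment of 13.3, 11.6, 15.0 and 15.1. In CPT10 replicate 1 other reverse peaks of the interval, with summits at 65240841 and 65263001, were equally high. The summits of the peak common to the libraries fell at 65243743, 65243749 and 65243747 in both CPT10 libraries and CPT20 replicate 2, a stretch of 7 bp, and at 65244520 in CPT20 replicate 1, whose peak also covered the former position. The 3 close summits lay to the left of ENSG00000289883, an unnamed gene of the minus strand at chr11:65243986-65245043.

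Besides NEAT1 and MALAT1, 13 annotated genes overlapped the window, and 4 of them were long enough to be tested. TALAM1, a minus-strand transcript inside MALAT1, had a body over flanks value of 2.55 with a standard error of 0.24 (limma, adjusted p = 0.0028). It shares its bases with MALAT1, and END-seq reads do not tell which of these genes was transcribed. FRMD8, a protein-coding gene whose 3′ end lies in the upstream 20 kb, had a lower body than flanks, at -1.56 with a standard error of 0.28 (limma, adjusted p = 0.019), against 2.38% of genes called that way. Its right flank holds the 5′ part of NEAT1, and with flanks of 50 kb the adjusted p was 0.054. The adjusted p was also above the threshold without CPT10 replicate 1, CPT10 replicate 2 or CPT20 replicate 2 (0.063 to 0.075), and the value was -0.59 when summits were counted. ENSG00000291174, a noncoding gene between NEAT1 and MALAT1, passed neither the test of strand balance nor that of body over flanks.

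The genes whose proteins build the bodies around these RNAs were listed without regard to their peaks, though with earlier results of these data known. Of 10 paraspeckle protein genes, 5 had a body above its flanks, among them SFPQ, HNRNPH3, TARDBP and HNRNPK, none had one below, and the median log2 value was 1.10. Of the 7 genes of nuclear speckle proteins, 6 were tested, 4 had a higher body (SRSF1, PNN, SRRM2 and SRRM1), none a lower one, and the median was 1.23. The median over all genes tested was -0.01, and these shares stand beside the 3.02% called among all genes. Those genes were not matched to the lists for transcription or length. Whether the shares are particular to genes of nuclear body proteins was not tested. SRRM1 and SRRM2 lost the call without any single library, and SRSF1 when summits were counted.

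Among the paraspeckle proteins, HNRNPH3, a splicing regulator, was covered at 33.2%, 23.5%, 36.7% and 23.6%, a mean of 29.3% ± 6.75 (SD, n = 4). NEAT1 had a mean of 33.2% ± 6.35 (SD, n = 4). SFPQ, a core paraspeckle protein that pairs with NONO, had a body over flanks value of 2.25 with a standard error of 0.30 (limma, adjusted p = 0.0070), whereas NONO was at 0.51 with a standard error of 0.21 (limma, adjusted p = 0.203). HNRNPK, which favours the long NEAT1 form, was at 1.68 (standard error 0.20) and TARDBP, which encodes TDP-43, at 1.71 (standard error 0.21). PSPC1, the third of the SFPQ and NONO family, had higher antisense coverage at -1.38 with a standard error of 0.28 (limma, adjusted p = 0.046), against 4.45% of genes called that way, a call lost without any single library. Its body of 108 kb was covered at 6.84% ± 2.95 (SD, n = 4).

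Among the speckle genes, SRSF1, a splicing factor of the SR family, was covered at 74.1%, 63.3%, 73.1% and 65.8%, a mean of 69.1% ± 5.33 (SD, n = 4). SRSF2, another SR protein, followed at 61.0% ± 9.13 (SD, n = 4) and was under the 5 kb needed for testing. Both lay near MALAT1, at 59.9% ± 8.60 (SD, n = 4). PNN, a speckle and splicing protein, had a body over flanks value of 2.13 with a standard error of 0.26 (limma, adjusted p = 0.0056). SON and SRRM2 are the large scaffold proteins of speckles. SON was at -0.19 with a standard error of 0.20 (limma, adjusted p = 0.647) and SRRM2 at 1.26 with a standard error of 0.25 (limma, adjusted p = 0.027). A site replicated at both times overlapped 3 of the 10 paraspeckle genes and 4 of the 7 speckle genes. Among all genes of at least 5 kb, 2.12% overlapped such a site. That set leaves out SRSF2, which was among the 4 and is under 5 kb, and was not matched to the lists for transcription. The time fit, which could not call changed genes in simulated data, called none of either list, and the medians were 0.18 and 0.41 against 0.02 over all genes.

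**Figure D5:**
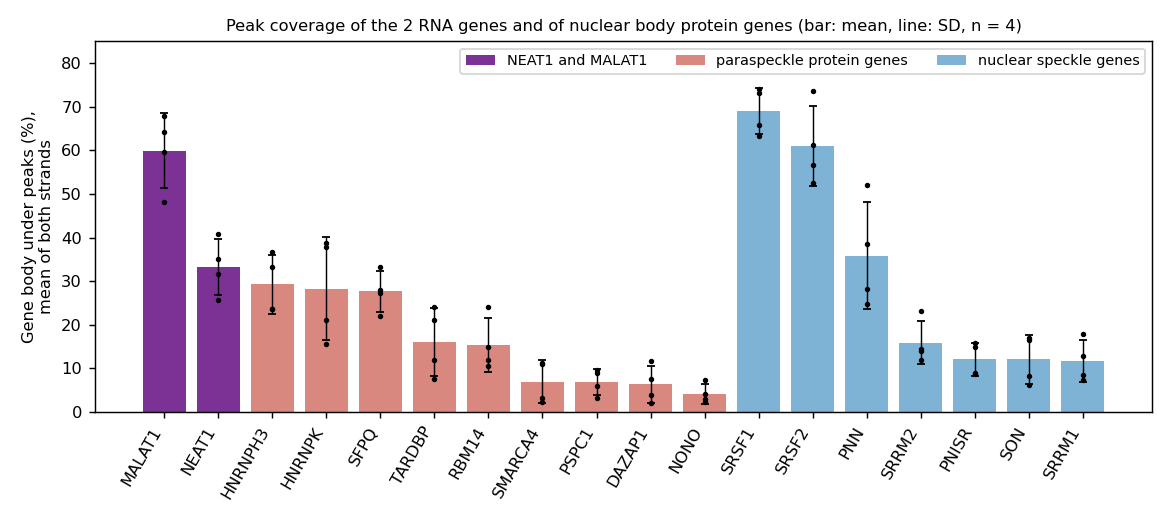
Percent of the gene body under peaks, as the mean of forward and reverse lists, for MALAT1 and NEAT1 (purple), 9 paraspeckle protein genes (red) and 7 nuclear speckle genes (blue). Bars are means, lines the SD of 4 libraries and points single libraries. SRSF1 and SRSF2 lie near MALAT1 at 61.0% to 69.1%, PNN near NEAT1, and NONO lowest at 4.10%.

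Along the annotated bodies, the shape of coverage differed between the 2 genes. Each body was cut into 10 equal parts, and sense and antisense coverage, averaged over the 4 libraries, gave 20 points. Sense coverage of NEAT1 was 79.0% in its first part, 93.8% in the second and 34.9% in the last, while antisense coverage was 63.4%, 51.5% and 8.23%. For MALAT1, sense coverage was 6.18%, 29.8% and 46.3%, and antisense coverage 50.9%, 99.2% and 33.7%. Pearson's r between the 2 profiles was -0.17. The frequent transcript start of MALAT1 lies 1405 bp from its annotated 5′ end, so the first part lies upstream of that start. Profiles cut from the frequent start were not computed. All r values of MALAT1, here and below, hold for the annotated end only.

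Of 383 other genes of 5 to 50 kb with a site replicated at both times, the profiles most like that of NEAT1 were those of NUCKS1 (r = 0.91), which encodes a nuclear DNA-binding protein, TMEM167A (r = 0.89), a membrane protein gene, and SNX5 (r = 0.88), a sorting nexin gene. All 3 lie on minus strands of other chromosomes, and mean sense coverage was 17.1% to 22.8% against 49.1% for NEAT1. Nearest to MALAT1 were EIF5 (r = 0.72), a translation initiation factor gene, the noncoding ENSG00000264772 (r = 0.70) and SNHG8 (r = 0.68), a small nucleolar RNA host gene. Their antisense coverage was 24.1% to 34.2% against 61.6% for MALAT1. These values describe 20 points that share the same 4 libraries and carry no test.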

How the data were processed

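END-seq was done on HCT116 cells treated with camptothecin (CPT10, CPT20; 2 libraries each) and on untreated cells. The authors trimmed reads with Trim Galore, aligned them with Bowtie2 to hg19, kept proper pairs of mapping quality at least 30 without removing duplicates, split them by strand with SAMtools and ran MACS2 on every strand of every library against the control, at q 0.05 and without local background. Replicates were not pooled. A peak therefore depends on the library's depth, and its fold is relative to a genome-wide background. The deposited lists give each peak's position, its fold enrichment (a ratio), −log10 p, −log10 q and a score, which was not used. Read counts were not used here.

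From these lists, covered bases, summits and paired sites (bedtools 2.31.1) were computed on chromosomes 1 to 22 and X with GENCODE annotation lifted to GRCh37, whose chromosomes are those of hg19. The 3 fits across all genes of at least 5 kb used limma 3.58.1 in R 4.3.3 on log2(percent covered + 1 percentage point), with Benjamini-Hochberg adjustment and called at 0.05. They were tested on simulated data, in which the body fit recovered most changed genes and the time fit recovered none. The strand fit recovered most genes of the larger simulated difference but missed most of the smaller, so a gene it did not call may still differ. The time fit centred each library on its median gene, and the strand fit on its median ratio of forward over reverse. The strand and body fits took the 4 treated libraries as repeats and ignored time. Interval differences used an exact permutation test. Genes named were both members, all genes overlapping the window, 3 genes of the most similar profile for each member, and of 2 lists of nuclear body genes those past a test and the 2 with most coverage. Some items these rules would name are not reported here. NONO and SON were named after their values were seen. Members and lists were chosen with earlier results of these data known. Alternatives were pseudocount, gene length, −log10 q, summits, list size, flanks, pairing distance, overlap, replicate block and leaving out each library.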

Additional observations from a re-analysis of the deposited data

How the results depend on the processing

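The control libraries gave no peak list used here and the groups held 2 libraries, so the limits are those of 4 lists per strand of unequal size. Genes called for strand balance fell from 2976 to 0 with genes of at least 2 kb, to 0 with a pseudocount of 0.25 and to 0 without any 1 library, with 9810, 8624 and 7510 to 7965 genes at an unadjusted limma p under 0.05. NEAT1 then stood at 1.61, 1.68 and 1.52 to 1.69, and at 0.83 with summits (adjusted p = 0.072), and was not called. MALAT1, near 0, turned to -0.0031 with −log10 q of at least 3, -0.044 with equal lists, and ran from -0.026 to 0.081 without 1 library. Genes called for body over flanks fell from 1519 to 710 with genes of at least 2 kb, 768 with summits, 506 with a pseudocount of 0.25, and 414 to 608 without 1 library. With summits NEAT1 was at 0.87 and MALAT1 at 0.83 and neither was called. In the time fit MALAT1 ran from -0.011 to 0.98 without 1 library, and was below 0 without CPT20 replicate 2. The downstream 20 kb changed sign with summits (0.18) and ran from -0.99 to 0.70 without 1 library, above 0 without CPT10 replicate 1 or CPT20 replicate 2. The other intervals kept their sign but not their size: without 1 library NEAT1 ran from 0.22 to 1.13, MALAT1 from 0.065 to 1.15, the sequence between the genes from 0.42 to 1.43 and the upstream 20 kb from 0.39 to 1.07.

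Sites in the window replicated at 10 min were 3 in place of 5 with −log10 q of at least 3, of at least 10 and with equal lists, and 0 with reciprocal overlap. At 20 min they were 2 in place of 6 with −log10 q of at least 10 and 3 with reciprocal overlap. At both times they were 0 in place of 3 with reciprocal overlap, and 2, 1 in each gene, with −log10 q of at least 3 or 10, equal lists or a distance under 50 bp. Replicated sites and windows need both libraries, so leaving one out was not possible. Window counts of both genes stayed within 1.5 times. The study's methods list 2 experiments, each with every condition, but neither they nor the labels say that replicate numbers are those experiments. With the replicate block the interval differences were 0.73 upstream, 0.68 for NEAT1, 0.92 between the genes, 0.61 for MALAT1 and -0.14 downstream, no gene was called (0), and no call changed.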
